A study of Mus musculus with 19 samples.

Results

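Schwann cells of the sciatic nerve on the day of birth (P0) were set against trunk neural crest at embryonic day 9.5 (E9.5), the last and the first stage of a mouse series that follows 1 glial lineage from the crest to the nerve. The comparison takes every array that the labels give to these stages, 3 at P0 and 3 at E9.5, or 6 of 19 in all. Both groups are green fluorescent cells sorted by flow cytometry from transgenic mice in which a glial promoter, switched on in crest stem cells and kept on in glia, drives the green protein. The P0 cells came from dissected sciatic nerve and the E9.5 cells from the trunk of the embryo, so that age and body region cannot be told apart. Sorted sciatic nerve cells of E12, with 3 arrays, serve as the stage in between. No other allele, treatment or strain is given in the labels used here, and a cell enters the data only if it is fluorescent, whatever its type. RNA was amplified in 2 rounds before hybridization to Affymetrix mouse arrays, on which several probes form a probe set for a gene. The values are expression indices on a linear intensity scale, here compared as log2 after a floor at 68.5, and a fold compares stage means of these log2 values, so one whose lower stage has an array at the floor is written as "at least". The labels do not tell if replicate arrays of a stage stand for separate animals or litters, so p-values reflect the spread between these samples alone, which may be technical. In sorted bulk RNA, fewer cells of a type and less RNA per cell cannot be told apart.

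Neural crest cells leave the dorsal neural tube, migrate and give rise to neurons and glia of the peripheral nervous system, melanocytes and other cells. In nerves, crest cells become Schwann cell precursors, which depend on neuregulin from axons acting on Erbb3, then immature Schwann cells. Around birth these leave the cell cycle, lay down a basal lamina of laminins and collagens, and under the control of Egr2 begin to wrap axons in myelin.

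The median index per array was 174.5 to 206.9 at P0 and 182.8 to 183.6 at E9.5. P0 arrays had rank correlations of 0.846 to 0.907 with each other, against 0.947 to 0.961 among E9.5 arrays, and those between the stages were 0.699 to 0.8. The GAPDH control probe sets gave a 3'/5' signal ratio, which grows as amplified RNA gets shorter, of 7.69, 6.8 and 4.69 on P0 replicates 1, 3 and 4, against 3.41, 2.33 and 2.46 on E9.5 replicates 1, 2 and 3, with no overlap. Counts of 3 or more calls, in either fit, that moved by over 1.5 times with this ratio as a covariate are given below with both values. In lists with 1 or 2 calls in a direction, leaving out 1 array could end or add a call. Values per array are printed in the order of those replicate numbers.

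Between crest and newborn nerve more genes were called lower than higher, although this split turned when the GAPDH ratio entered the fit. Of 10414 probe sets tested, 2916 differed (28%), 1261 higher at P0 (12.1%, 1046 genes) and 1655 lower (15.9%, 1353 genes), by limma with Benjamini-Hochberg adjusted p under 0.05. Differences of log2 2 or more were seen for 276 of the higher and 230 of the lower probe sets. For 176 that rose, all 3 E9.5 arrays were at the floor, and for 135 that fell, all 3 P0 arrays were. The arrays of both stages did not overlap for 3790 probe sets (36.4%), of which 2696 were called. The median log2 difference over all tested was 0.03. With the GAPDH ratio as a covariate 1381 rose and 738 fell, and 917 of the rises and 677 of the falls above were called the same way in that fit.

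Col1a1, Lama2 and Aatk had the largest rises. Col1a1, a chain of the fibrillar collagen type I, had 4840, 7830 and 5960 at P0 and 16.3, 39.7 and 27 at E9.5, all E9.5 values under the floor, and was at least 88.8-fold higher at P0 (log2 difference 6.47, SE 0.21, adjusted p = 1.4e-12). Lama2, a laminin chain that Schwann cells secrete and whose loss causes muscular dystrophy with neuropathy, had 5020, 6590 and 6480 against 45.1, 19.5 and 32.5 (at least 87.4-fold, SE 0.18). Aatk, a kinase of neural tissue, had 5310, 6010 and 5290 against 60.5, 64.9 and 66.4 (at least 80.7-fold, SE 0.24). For each of these 3 genes the stages lay far apart and the P0 arrays lay close together. Ahnak, a very large scaffold protein, was at least 64-fold higher and Col3a1, another fibrillar collagen, 60-fold, with all arrays above the floor. Mbp, myelin basic protein, had 3210, 4750 and 5170 at P0 and 98.6, 128 and 140 at E9.5, a 35.4-fold rise (SE 0.25, adjusted p = 2.6e-10). A further Mbp probe set had a log2 difference of 0.49 and was not called (adjusted p = 0.059).

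Kcna1, a voltage-gated potassium channel of myelinated fibres, had 1220, 3220 and 3270 at P0 and was listed at 0 on each E9.5 array. Apoe, the lipid carrier apolipoprotein E, had 1180, 3940 and 3740 at P0 and was likewise listed at 0 throughout E9.5. P0 replicate 1 was the lowest P0 array for both. The other genes of the 15 largest rises were Matn2, a matrix protein of Schwann cells (at least 56.1-fold), Prnp, the prion protein (at least 44.5-fold), Atf3, a transcription factor of injury and stress (at least 39.4-fold, with log2 differences of 3.47, called, and 0.27, not called, on its other probe sets), Lmna, lamin A/C (at least 36.2-fold), Art3, S100a6 and Anxa2 (at least 35.5, 34.6 and 34.4-fold). Further probe sets rose less, by log2 2.76 for Matn2, 2.24 for Lmna, 4.53 for Col1a1, and 4.19 and 4 for Col3a1, and all were called. Of the 15, Col1a1, Mbp and S100a6 were not called at E12, where their adjusted p against E9.5 was 0.74, 0.1 and 0.18, while Prnp was already at 2920, 2630 and 2320 on E12 replicates 1, 2 and 4.

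Crabp2 and Igf2bp1 had the largest falls. Crabp2, which carries retinoic acid to its nuclear receptor, had 19.1, 13.4 and 22.7 at P0, all under the floor, and 2900, 3530 and 2820 at E9.5, at least 44.8-fold lower at P0 (log2 difference -5.49, SE 0.15, adjusted p = 3.3e-13). Crabp1, its relative that binds retinoic acid in the cytoplasm, had 77.9, 146 and 243 against 3080, 2750 and 2670, a 20.2-fold fall (SE 0.31). Igf2bp1, a fetal RNA-binding protein that regulates mRNAs such as Igf2, had 115, 109 and 138 against 4100, 4250 and 3950, a 34.1-fold fall (SE 0.22). In these 3 genes E12 lay between the 2 stages, with 653, 705 and 967 for Crabp2, 838, 950 and 642 for Crabp1 and 1640, 1740 and 1640 for Igf2bp1. Vcan, the proteoglycan versican, took another path: it was listed at 0 on all P0 arrays, against 1080, 1640 and 1500 at E9.5, but at 4910, 4440 and 5850 at E12, where it was called higher than E9.5.

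For some of the 15 falls the probe sets or the arrays differed. Mtm1, a lipid phosphatase, fell at least 20.8-fold on 1 probe set and had a log2 difference of 0.00 on its other. Igdcc3, an immunoglobulin superfamily gene, fell 16.1-fold on 1 and had -0.33 on the other (adjusted p = 0.18), and Enah, an actin regulator, fell at least 13.8-fold on 1 and had -0.12 on the other (adjusted p = 0.88). Actn1, the actin crosslinker alpha-actinin, had 1420, 51 and 79.5 at P0 against 3130, 3310 and 3160 at E9.5 (at least 16.2-fold lower between log2 means, adjusted p = 0.0022), and P0 replicate 1 was well above the other P0 arrays. The other Actn1 probe set had a log2 difference of -2.76 and was called. Cdca7, a gene activated by Myc and E2F1 (at least 18.5-fold), Cited2, a transcriptional coregulator (14.4-fold), Sinhcaf, a subunit of the Sin3 histone deacetylase complex (at least 13.5-fold), Bex4 (12.4-fold), Rrm2, a subunit of ribonucleotide reductase (12.2-fold), Pfkl, the liver phosphofructokinase (12.1-fold), and Cdc6, a loader of the replicative helicase (at least 11.6-fold), completed the group.

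**Figure D1:**
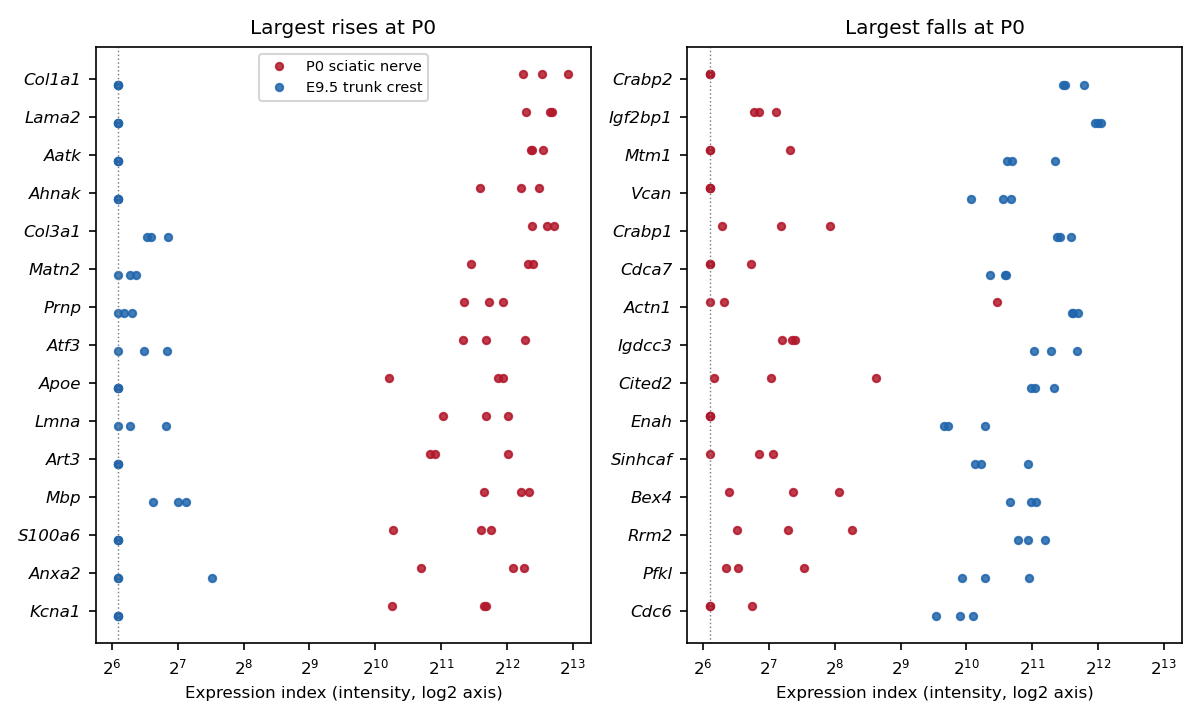
Expression index on each array (intensity, log2 axis, values under the floor drawn at the floor) for the 15 genes with the largest rises and the 15 with the largest falls, P0 arrays in red and E9.5 arrays in blue, the dotted line marking the floor at 68.5. The P0 and E9.5 points of each gene do not overlap, which was required of the genes drawn. Actn1 has 1 P0 array, at 1420, far from the other P0 arrays.

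Of 19 transcription factors known from early crest cells 9 were called lower at P0, 1 was called higher and 9, Sox10 among them, were not called, with a median log2 difference of -0.57, while over all 7414 genes with 1 symbol 12.9% rose, 16.7% fell and the median was 0.03. Pax3, a paired-box factor of the dorsal neural tube and crest, had 138, 82.8 and 137 at P0 and 1140, 1050 and 1090 at E9.5, a 9.42-fold fall (SE 0.28, adjusted p = 3.5e-07). Tfap2b, an AP-2 factor, was listed at 0 on all P0 arrays, against 488, 514 and 678 at E9.5. Mycn, a growth regulator (at least 6.44-fold), and Gbx2, a homeobox factor (at least 5.33-fold), fell as well. Sox10, the factor that the lineage needs from crest to Schwann cell, had 1240, 3260 and 2520 at P0 against 901, 1370 and 1870 at E9.5, with overlapping arrays and a log2 difference of 0.71 (adjusted p = 0.3). Myc was the member that rose (log2 difference 1.95, adjusted p = 0.047). Without E9.5 replicate 2 the falls numbered 5 in place of 9.

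Markers of Schwann cell precursors went both ways. Of 16 measured, 6 rose and 4 fell (median 0.57), or 7 and 2 with the GAPDH covariate. Dhh, the hedgehog signal that Schwann cells send to the nerve sheath, had 2350, 4470 and 4370 at P0 and 322, 301 and 334 at E9.5, an 11.2-fold rise (SE 0.2), and Ptprz1, a receptor phosphatase of glia, had 666, 534 and 1250 against 38, 48.9 and 33.2 (at least 11.1-fold, SE 0.26). Fabp7, a fatty acid binding protein of early glia, had 144, 85.6 and 404 at P0 against 1690, 1520 and 1370 at E9.5, an 8.89-fold fall (SE 0.41), although it was at 4820, 4270 and 5380 at E12. Gap43, a growth-associated protein of nerve, fell at least 3.82-fold, and Cdh2, N-cadherin, 3.54-fold. Erbb3, the neuregulin receptor, had 1680, 3580 and 3970 at P0 against 1590, 2050 and 1680 at E9.5 and was not called (log2 difference 0.71, adjusted p = 0.08).

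The immature Schwann cell list had 8 members higher and 1 lower of 15 measured (median 0.66). Pou3f1, the POU factor that precedes myelination, had 305, 557 and 2100 at P0 and stayed under the floor at E9.5, at 42, 24.1 and 34.3 (at least 10.3-fold, SE 0.6, adjusted p = 0.00047). Sox2, which holds Schwann cells immature, had 2280, 3050 and 4040 against 2240, 1740 and 1210, a 1.81-fold rise (adjusted p = 0.025). S100b, a calcium-binding protein of mature glia, had 31.4, 34 and 149 at P0 and was listed at 0 at E9.5, and was not called. Jun and Egr1, which rose by log2 1.85 and 3.06, stand in the list of immediate early genes too.

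Myelin genes were higher in newborn nerve. Of 10 measured 6 rose and 0 fell, with a median of 3.29, or 2.86 between the P0 and E9.5 arrays of lot 1 and 3.1 between those of lot 3, the lots that hold both stages. Beside Mbp these were Ndrg1, which keeps myelin intact (1330, 1780 and 3370 against 34.7, 30 and 32.7, at least 29.2-fold), Mal, a proteolipid of myelin membranes (1110, 1440 and 3400 against 46.9, 79.3 and 45, at least 24.4-fold), and Pmp22, a structural protein of peripheral myelin (5080, 5470 and 6180 against 340, 424 and 359, 14.9-fold). P0 replicate 4 was the highest array in all 3. Cd9, a tetraspanin, rose 14-fold and Egr2, the master regulator of myelination, 6.8-fold. Mag, myelin-associated glycoprotein, had 225, 344 and 236 at P0 against 420, 213 and 183 at E9.5, and it, Cnp, Gjb1 and Cd82 were not called. Over all 14 probe sets of these genes, in place of 1 per gene, the median was 2.42.

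Most enzymes of cholesterol synthesis were not called, and those of fatty acid and sphingolipid synthesis went both ways. In cholesterol synthesis 2 of 16 genes rose and 0 fell (median 0.36, and 0.15 and -0.24 in lots 1 and 3). They were Msmo1, a sterol oxidase (759, 367 and 1820 at P0 against 243, 417 and 342 at E9.5, with overlap, adjusted p = 0.039), and Mvk, mevalonate kinase (1.56-fold). With the GAPDH ratio as a covariate 6 of the 16 rose, and without E9.5 replicate 1, 0 did. Without P0 replicate 1 or 4, or E9.5 replicate 2 or 3, 1 rose, and without P0 replicate 3, 3 rose. In fatty acid and sphingolipid synthesis 5 of 14 rose and 3 fell (median 0.37, and -0.09 and 0.3 in the lots). Elovl6, an elongase, had 956, 758 and 1920 against 478, 456 and 558 (2.25-fold, adjusted p = 0.0033), and Degs1, a ceramide desaturase, rose 1.96-fold, while Elovl5, another elongase, fell 3.13-fold (adjusted p = 0.009). The covariate gave 9 rises and 0 falls in this second list. Its rises numbered 3 without E9.5 replicate 1, and its falls 0 without P0 replicate 3 and 1 without E9.5 replicate 2.

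The basal lamina and the proteins that bind it to the cell rose together. Of 24 measured genes 17 rose and 1 fell (median 1.43, and 1.13 and 1.26 in the lots), and leaving out any 1 P0 or E9.5 array gave 16 or 17 rises. Laminin chains led: beside Lama2, Lama4 had 2910, 4120 and 4550 at P0 against 0, 210 and 129 at E9.5 (at least 30.9-fold, SE 0.31), and Lamb1 had 3350, 7160 and 6120 against 340, 404 and 384 (14.1-fold, SE 0.25). Among the receptors, Itgb4, the integrin that marks myelinating Schwann cells, had 400, 1060 and 1420 against 0, 6.26 and 2.94 (at least 12.3-fold, SE 0.43), and Dag1, dystroglycan, had 2770, 5210 and 5160 against 545, 694 and 748 (6.41-fold, SE 0.28). P0 replicate 1 was the lowest P0 array in each of these 4 genes, and still above all E9.5 arrays. Agrn, the proteoglycan agrin, was the member that fell (598, 731 and 1360 against 1320, 2130 and 1880, adjusted p = 0.034), and its arrays overlap.

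Of 24 collagens and other secreted matrix genes 13 rose and 2 fell (median 1.81, or 0.88 over all their probe sets). Tnc, tenascin C, had 2770, 858 and 1380 at P0 and under 1 at E9.5 (at least 21.7-fold), and Reln, a secreted glycoprotein, had 1170, 1030 and 2220 at P0 and was listed at 0 on all E9.5 arrays, although its other probe set was not called (log2 difference -0.30). Vcan and Fn1, fibronectin, fell, Fn1 by 3.93-fold (671, 580 and 272 against 1630, 1870 and 2110). The list of fibroblast markers shares genes with the matrix list, Col6a1 among them, so the lists are not independent. Of the fibroblast markers 7 of 19 rose and 0 fell (median 0.31, or -0.13 with the GAPDH covariate). Their summed index was 24400 to 32000 on P0 arrays and 3270 to 4180 on E9.5 arrays. The largest of these rises were in Col1a1, Col3a1, Postn (15.3-fold) and Col1a2 (12.2-fold), all matrix genes. Pdgfra, a defining receptor of fibroblasts, had 210, 168 and 121 at P0 against 150, 125 and 121 at E9.5 and was not called, Dcn, decorin, had 161, 143 and 188 against 52.4, 62.6 and 38.2 and was not called (adjusted p = 0.3), and Lum and Dpt were near or under the floor. The part of fibroblasts in the matrix result was not tested.

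Calcium-binding annexins and S100 proteins rose in 11 of 17 measured cases and fell in 0 (median 1.29, or 0.71 over all their probe sets). Anxa2, which links membranes to actin, had 1650, 4900 and 4360 at P0 against 184, 27.7 and 33.4 at E9.5. S100a6, calcyclin, had 1240, 3450 and 3110 against 28.1, 30.9 and 30.4. Anxa1 had 1170, 2530 and 766 against 8.17, 11.3 and 11.2 (at least 19.2-fold), and S100a10, the partner of Anxa2, 1800, 1120 and 1380 against 82.6, 95.3 and 164 (12.9-fold). In all 4 genes every P0 array was above every E9.5 array by a wide margin.

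Immediate early genes and genes of the response to tissue dissociation were higher at P0, with 24 of 38 measured risen and 5 fallen (median 2.11), the falls being 3 without P0 replicate 1 or replicate 3. Fos, a subunit of the AP-1 transcription factor, had 7140, 5290 and 6970 at P0 against 463, 613 and 71 at E9.5 (23.6-fold, SE 0.56). Cebpd, a transcription factor of acute responses, had 1360, 2520 and 2490 against 0, 0 and 20.9 (at least 29.9-fold), Gadd45b, a DNA damage response gene, 903, 2900 and 1910 against 26.3, 22.8 and 11.5 (at least 24.9-fold), and Klf4, a zinc finger factor, 1650, 1440 and 2090 against 67.1, 71.4 and 20.9 (at least 24.6-fold). The list's mean log2 level lay 1.22 to 2.39 above the E9.5 mean on P0 arrays, against -0.17 to 0.11 on E9.5 arrays. Heat shock genes were split. Hspa1a, the inducible chaperone, had 647, 331 and 5970 at P0 against 57.5, 85.4 and 58.1 at E9.5, while Hsp90aa1 had 1640, 2340 and 3690 against 7600, 7650 and 7800 and fell 3.17-fold. Egr2, Egr1, Jun and Myc belong to this list as well as to the glial, myelin and crest lists above. Its part in their rise was not tested.

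**Figure D2:**
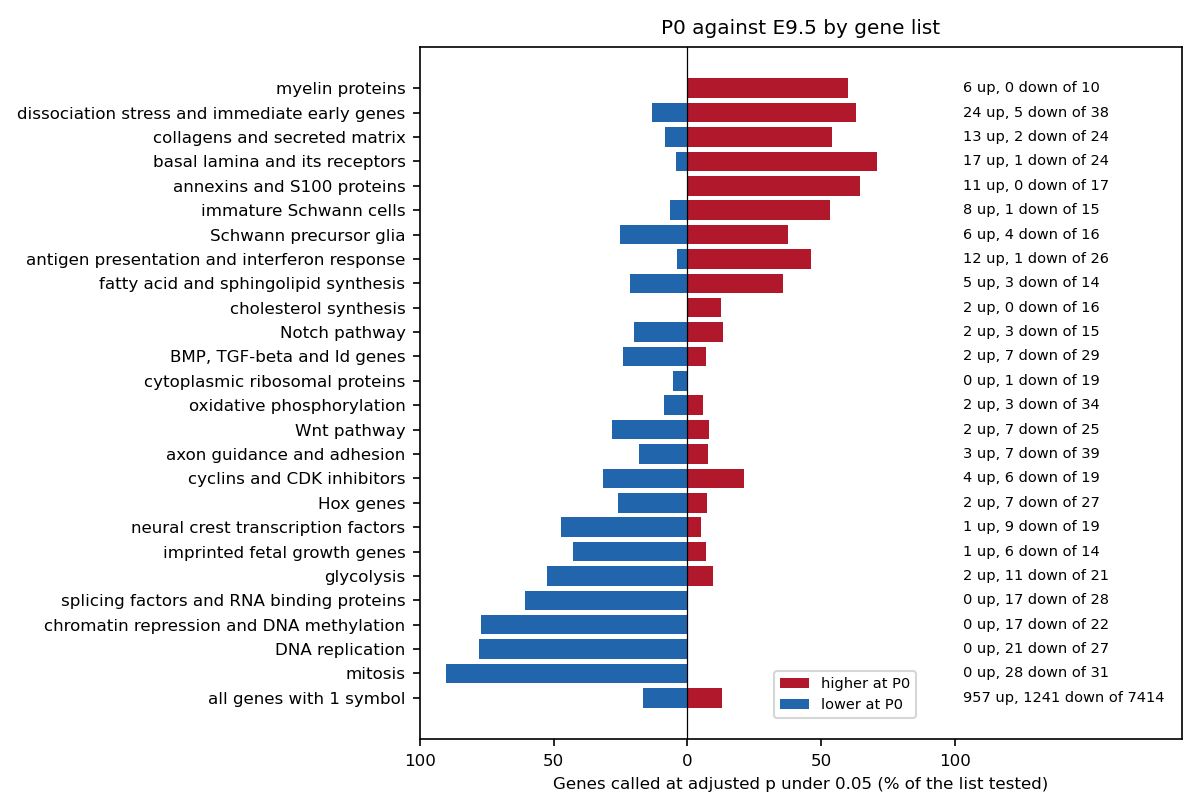
Share of each gene list called higher (red, right) or lower (blue, left) at P0 than at E9.5, in percent of the genes tested, with counts at the right and all 7414 genes with 1 symbol in the bottom row. Rises outnumber falls in the matrix, myelin and stress lists at the top, and the DNA replication, mitosis, chromatin and splicing lists hold falls and 0 rises.

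Cell division genes were lower in newborn nerve. Of 31 measured genes of mitosis 28 fell and 0 rose (median -1.54, and -1.61 and -1.39 in the lots). The 3 members of largest change were Ttk, a kinase of the spindle checkpoint, Aurka, a kinase of spindle poles, and Bub1, a further checkpoint kinase. Their promoters are shown because the members moved together and because a CCAAT box, the site of factor NF-Y, is known from many mitotic genes. The 120 bases before the start site are given from RefSeq on GRCm38.p6, 5′ to 3′ on the strand of the gene, for Ttk (chr9:83834569-83834688, plus strand), Aurka (chr2:172370571-172370690, minus strand) and Bub1 (chr2:127831860-127831979, minus strand), with CCAAT or its reverse complement ATTGG in capitals.
Ttk: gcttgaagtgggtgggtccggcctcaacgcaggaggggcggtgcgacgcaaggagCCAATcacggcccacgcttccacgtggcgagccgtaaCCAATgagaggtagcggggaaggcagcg
Aurka: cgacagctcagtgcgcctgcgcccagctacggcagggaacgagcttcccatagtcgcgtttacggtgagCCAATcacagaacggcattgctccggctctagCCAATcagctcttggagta
Bub1: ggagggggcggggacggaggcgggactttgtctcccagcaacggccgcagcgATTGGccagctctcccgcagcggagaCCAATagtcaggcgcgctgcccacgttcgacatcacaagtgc
Each stretch holds 2 matches. Only genes with a CCAAT match in these 120 bases were eligible to be shown, so a match in each was set by that choice. In the 250 bases before the start, CCAAT on either strand was found for 22 of 25 mitosis genes with a promoter in the table (88%), and for 36.2% of all 5929 tested genes with one. TTTGAA, or its reverse complement TTCAAA, a core of the CHR element of cell cycle genes, was found for 12 of the 25 (48%) against 11.1% of all. A match is a description of these letters only.

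Ttk had 28.6, 111 and 104 at P0 and 887, 838 and 711 at E9.5 (at least 8.75-fold lower, SE 0.33, adjusted p = 3e-06). Aurka had 59.3, 71.8 and 76.1 against 502, 687 and 572 (at least 8.07-fold), and Bub1 had 124, 80.9 and 159 against 844, 1130 and 851 (7.98-fold). All 3 E9.5 arrays were above all P0 arrays for each. Smaller falls were seen in Mki67, the proliferation antigen Ki-67 (785, 1310 and 903 against 1820, 1960 and 1740, 1.88-fold, adjusted p = 0.019), and Cdk1, the kinase that drives entry to mitosis (589, 1310 and 767 against 1320, 1600 and 1950, 1.91-fold). Cdc20, Cenpe and Racgap1 were not called, and Racgap1 had 510, 696 and 555 at P0 against 358, 323 and 551 at E9.5. The 3 P0 arrays had list means of -1.85 to -1.43 in log2 relative to the E9.5 mean. With the GAPDH ratio as a covariate 16 of the 31 fell.

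DNA replication followed the same direction, with 21 of 27 genes lower and 0 higher (median -1.45, and -1.72 and -1.59 in the lots, 14 lower with the covariate). Rrm2, which makes deoxynucleotides, had 91.3, 157 and 308 at P0 against 1760, 2350 and 1950 at E9.5. Among the subunits of the replicative helicase, Mcm7 had 120, 96.9 and 194 against 639, 1180 and 995 (6.95-fold lower), while Mcm5 had 3010, 1790 and 1220 against 1110, 1570 and 1230 and was not called. Pcna, the sliding clamp, had 1870, 1360 and 2760 against 4770, 4050 and 4110 (2.24-fold lower, adjusted p = 0.00014). TTCCCGC, an E2F core, or GCGGGAA stood in the promoters of 7 of 24 replication genes (29.2%) and in 6.3% of all.

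Of the inhibitors of cyclin-dependent kinases, Cdkn1a, Cdkn1b, Cdkn1c and Cdkn2d rose, and Cdkn2a, Cdkn2b and Cdkn2c were not called. Cdkn1a, p21, had 1090, 1540 and 1680 at P0 and 57.4, 55.2 and 54.4 at E9.5 (at least 20.6-fold, SE 0.59, adjusted p = 3.8e-05). Cdkn1b, p27, had 1240, 593 and 1490 against 272, 339 and 176 (4.07-fold), and Cdkn1c, p57, 4710, 7510 and 8310 against 1940, 2110 and 2490 (3.07-fold). Every P0 array was above every E9.5 array for these 3 genes. With Cdkn2d they are the 4 rises among 19 cyclins, kinases and inhibitors, of which 6 fell, or 5 and 3 with the covariate. Ccnd2, cyclin D2, was among those that fell, and its P0 arrays were split, at 109, 104 and 1310 against 1240, 2140 and 1660.

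Genes of chromatin repression and DNA methylation fell in 17 of 22 cases and rose in 0 (median -1.43), or 9 and 0 with the covariate. Hmga2, a chromatin protein of fetal growth, had 780, 190 and 747 at P0 against 3160, 3770 and 3500 at E9.5 (7.22-fold lower). Dnmt1, the maintenance methyltransferase, had 167, 219 and 698 against 1330, 2010 and 2020 (5.96-fold), and Ezh2, the Polycomb methyltransferase, 557, 243 and 804 against 2160, 2510 and 2270 (4.84-fold). Of 28 splicing factors and RNA-binding proteins 17 fell and 0 rose (median -1.04), or 6 and 0 with the covariate. Ncl, nucleolin, had 1960, 2410 and 4780 against 7600, 7930 and 8400 (2.82-fold lower), and Srsf1, a splicing factor, 126, 85.2 and 317 against 866, 1110 and 627 (5.61-fold). Among the P0 arrays replicate 4, which has the lowest GAPDH ratio of the 3, was closest to E9.5 in Dnmt1, Ezh2, Ncl and Srsf1. In Hmga2 it was replicate 1, which has the highest ratio, that was closest. The part of RNA length in these falls was not tested.

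In glycolysis 11 of 21 genes fell and 2 rose (median -0.91). Pkm, pyruvate kinase, had 134, 475 and 917 at P0 against 2780, 4190 and 4010 at E9.5 (9.28-fold lower), Hk2, hexokinase 2, 65, 85.4 and 155 against 782, 907 and 606 (at least 7.8-fold), and Pgk1, phosphoglycerate kinase, 784, 1150 and 1700 against 5280, 5670 and 5240 (4.67-fold). Ldha and Ldhb, the subunits of lactate dehydrogenase, went opposite ways: Ldha had 2540, 3460 and 4170 against 7890, 7720 and 8010 and fell 2.37-fold, and Ldhb had 1390, 1580 and 2930 against 776, 422 and 542 and rose 3.31-fold. Of 34 genes of oxidative phosphorylation 2 rose and 3 fell (median 0.01), or 1 and 0 with the covariate. The falls there numbered 10 without P0 replicate 4, and the rises 4 without P0 replicate 1 and 5 without E9.5 replicate 3. Of 19 ribosomal proteins 0 rose and 1 fell (median 0.04).

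Pathways of patterning had mixed members. The share of genes called, in either direction, was 25.6% to 36% in these lists, near the 29.6% of all genes with 1 symbol. Of 29 BMP, TGF-beta and Id genes 2 rose and 7 fell (3 and 1 with the covariate). Id3, an inhibitor of basic helix-loop-helix factors, had 126, 141 and 154 at P0 against 750, 645 and 1100 at E9.5 (5.79-fold lower), while its relative Id4 had 488, 377 and 818 against 139, 96.7 and 109 (4.68-fold higher). In the Wnt pathway 2 of 25 rose and 7 fell (4 and 6 with the covariate), among the falls Fzd2, a receptor, by 2.74-fold, and Tcf4, which is a basic helix-loop-helix factor and no Wnt effector. Of 27 Hox genes, the homeobox genes of body position, 2 rose and 7 fell (median -0.42, and -0.21 and -0.05 in the lots). Hoxa5 had 190, 65.8 and 98.4 against 932, 675 and 573 (at least 6.55-fold lower), Hoxb6 fell at least 5.65-fold, and Hoxd8 had 280, 238 and 516 against 130, 130 and 112 (2.63-fold higher). The covariate gave 2 rises and 4 falls of Hox genes, and 4 rose without P0 replicate 4. In the Notch pathway 2 of 15 rose, Hes1 and Hey1, and 3 fell (4 and 1 with the covariate). There 4 rose without P0 replicate 1, and 1 fell without P0 replicate 3 or E9.5 replicate 2. Among 39 axon guidance genes 3 rose and 7 fell, led by Epha5, an ephrin receptor (656, 1070 and 2360 against 36.6, 35.2 and 27.8, at least 17.3-fold), and Efnb2, an ephrin (at least 7.67-fold lower), and the falls numbered 4 without E9.5 replicate 2 or replicate 3.

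Growth genes under parental imprinting fell in 6 of 14 cases and rose in 1 (median -0.82), with 3 falls without E9.5 replicate 2. Mest had 243, 151 and 666 at P0 against 3190, 3550 and 2740 at E9.5 (10.8-fold lower). Igf2, the fetal growth factor, had 308, 399 and 319 against 1330, 1390 and 1620 (4.25-fold lower, adjusted p = 0.044), and Cdkn1c was the member that rose. Genes of antigen presentation and the interferon response rose in 12 of 26 cases and fell in 1 (median 0.48), with 7 rises without P0 replicate 3 or E9.5 replicate 2. Among these rises were B2m, the light chain of MHC class I, at 2630, 3650 and 3570 against 690, 625 and 642 (4.98-fold), and Irf1, an interferon regulatory factor, at 925, 454 and 1180 against 105, 126 and 95.4 (7.34-fold). The P0 and E9.5 arrays did not overlap in these 4 genes.

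Markers of several other cell types had 1 or 2 calls each. Counts of genes higher and lower at P0 were 0 and 1 of 14 for endothelium (Emcn), 0 and 1 of 11 for mural cells (Notch3), 1 and 1 of 16 for macrophages (Cd68 and Fcgr3), 0 and 1 of 14 for erythroid cells (Car2), 0 and 1 of 17 for skeletal muscle (Chrna1), and 0 and 1 of 16 for neurons (Neurog2). For melanocytes 1 of 6 rose and 0 fell. That gene, Ednrb, an endothelin receptor that glia carry too, had 1840, 5330 and 5500 against 376, 324 and 682, and Dct, a melanin enzyme, was not called. For mesoderm they were 2 and 0 of 10, for neural tube 2 and 3 of 14 (35.7% called, and 0 higher without P0 replicate 3 or E9.5 replicate 2 or 3), and for epithelium 1 and 0 of 15 (3 higher without P0 replicate 4). The mean log2 level of the neural tube list, relative to the E9.5 mean, was -0.38 to -0.16 on P0 arrays against -0.03 to 0.05 on E9.5 arrays, and that of the melanocyte list 0.41 to 0.77 against -0.07 to 0.04, both without overlap. The summed index of the macrophage list was 2750 to 3130 on P0 arrays and 2660 to 3330 on E9.5 arrays, that of endothelium 2470 to 3050 and 2430 to 2860, and that of neurons 3120 to 4350 and 3770 to 4140. Acta2 of mural cells, Cdh5 of endothelium, and Ctss and Mrc1 of macrophages lay under the floor on all arrays of both stages. As a check of the labelled cell types, Sox10 and Erbb3 were above the floor on all 6 arrays, S100b on 1 P0 array, and Pax3 and Tfap2b on all E9.5 arrays.

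**Figure D3:**
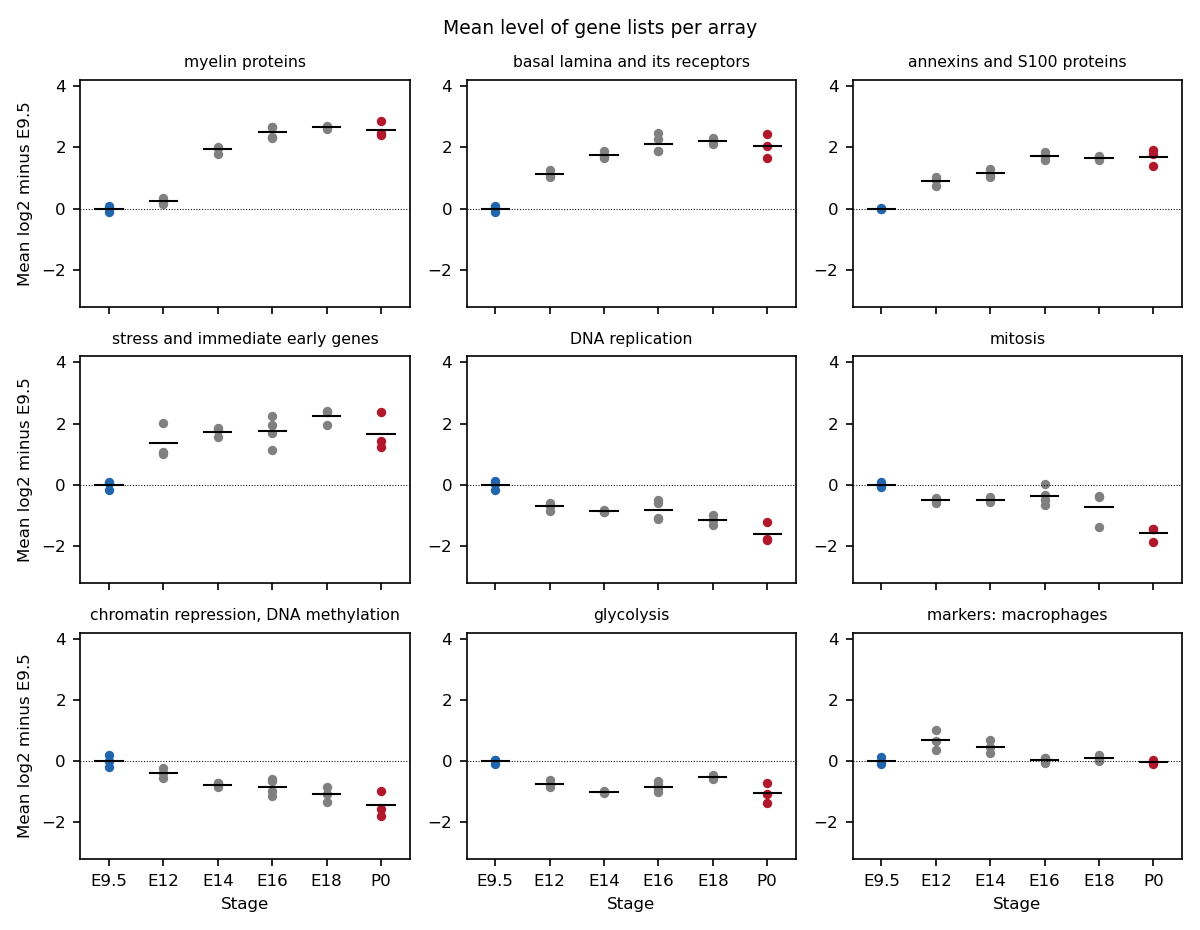
Mean log2 index of 9 gene lists on each of the 19 arrays, relative to the mean of the E9.5 arrays, by stage, with E9.5 in blue, the nerve stages between in grey, P0 in red and a bar at each stage mean. Myelin genes stay near E9.5 at E12, mitosis genes are lowest at P0, with array means of -1.85 to -1.43, and macrophage markers are higher at E12 and back near 0 at P0.

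A further question was which genes changed at E12 and stood at their E9.5 level again at P0. A probe set was taken as returned where E12 was called against E9.5, P0 was called against E12 in the opposite direction, and the 95% confidence interval of the P0 minus E9.5 log2 difference lay within -1 to 1, that is within 2-fold. E12 against E9.5 had 1469 calls (14.1%), 1010 higher (9.7%) and 459 lower (4.41%), and P0 against E12 had 1705 (16.4%), 472 higher (4.53%) and 1233 lower (11.8%). Both comparisons use the same 3 E12 arrays. Returns numbered 211 (2.03% of those tested): 199 rose at E12 and fell back (1.91%, 181 genes) and 12 fell at E12 and rose again (0.115%, 11 genes). They are 19.7% of the probe sets higher at E12 and 2.61% of those lower, a difference that was not tested. With quantile scaling the returns were 164 and 29 by direction. The median index was 195.5, 196 and 197.4 on the E12 arrays. It was 182.8 to 183.6 at E9.5, and 176.4, 174.5 and 206.9 on P0 replicates 1, 3 and 4. Of the 12, 2 were kept without E12 replicate 1, and 2 without E12 replicate 2. The part of scaling in the split by direction was not tested. Requiring E14, which has arrays of its own, to be called as well in the direction of E12 left 84, 81 and 3 by direction. Leaving out 1 array gave 113 to 305 returns, with 113 and 120 without E12 replicates 2 and 1 and 130 and 132 without E9.5 replicates 2 and 1, and the GAPDH covariate gave 127, 119 and 8 by direction. The calls of E12 against E9.5 numbered 958 without E9.5 replicate 2 and 963 without E12 replicate 1, and those of P0 against E12 were 543 higher and 698 lower with the covariate, and numbered 1052 without E12 replicate 2 and 2793 without P0 replicate 4.

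Not everything that moved back came to rest at E9.5. Of 313 probe sets that rose at E12 and fell by P0, 24 were still called higher at P0 than at E9.5, 38 were called lower, and 52 were not called but had an interval wider than the limit. Of 22 that fell and rose, 1 was still called lower, 2 were called higher and 7 had a wider interval. Among the 199, the median log2 difference at E12 was 1.05 (0.38 to 4.59), with 16 of log2 2 or more, and the medians of their stage means from E9.5 through E12, E14, E16, E18 to P0 were 196, 430, 322, 233, 204 and 188. Those of the 12 were 316, 216, 269, 310, 334 and 352. For 32 of the 199 all P0 and E9.5 arrays were at the floor, so that for these the return is only to a level under 68.5. Just inside the limit of 1 were Ptpn9, with an interval reaching 0.997, and Lxn with 0.993, and just outside were Ctf1 with 1.001 and Pik3ca with 1.01. The difference between P0 and E9.5 was itself called for 7 of the 199 and 2 of the 12, at under 2-fold.

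Scrg1, Cadps, Gfra3 and Itga4 had the largest E12 changes among the named returns. Scrg1, a gene of neural tissue, was listed at 0 on all E9.5 arrays, stood at 967, 904 and 816 at E12, and was under the floor again at P0, at 25.1, 19.9 and 6.85 (adjusted p = 2e-11 for E12 against E9.5). Gfra3, the artemin receptor subunit, had 212, 203 and 276 at E9.5, 2540, 2310 and 2590 at E12, and 251, 366 and 311 at P0, and was still at 2510 ± 256 at E14 (SD, n = 3). Its log2 difference between P0 and E9.5 was 0.42 (interval -0.05 to 0.89). Itga4, an integrin subunit of migrating crest that binds fibronectin, had 65.1, 97.5 and 58 at E9.5, 582, 578 and 679 at E12, and 14.6, 16.1 and 44.4 at P0. It was under the floor on all P0 arrays and on 2 E9.5 arrays, and each P0 array was below every E9.5 array. Itga4 did not meet the rule with the floor at the 10th percentile or with log2 of the value plus 50. In each of these genes the E12 arrays were above all E9.5 and P0 arrays, which was required of the named returns.

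Dkk2, a secreted modulator of Wnt signalling, had 37.8, 33.6 and 44.7 at E9.5, 529, 402 and 606 at E12, and 6.19, 36.2 and 35.8 at P0. Cadps, which primes secretory vesicles, had 72.6, 100 and 64.8, then 862, 898 and 1020, then 56.5, 40.7 and 36.7 at those stages. Lgmn, a lysosomal protease, had 137, 140 and 189, then 1050, 819 and 548, then 111, 163 and 199. Lgmn returned to levels near those of crest on every P0 array. Dkk2 was under the floor on all P0 and E9.5 arrays, so its return is only to a level under the floor. Cadps was under the floor on all P0 arrays and below every E9.5 array, and did not meet the rule with the floor at the 10th percentile. Tent5c, Cxcl12, a chemokine, Homer2, a synaptic scaffold, and Astn1, a neuronal adhesion protein, were the others of the 10 named, which are the largest among probe sets with 1 gene symbol. Cxcl12 met the rule on 1 of 3 probe sets, since the others differed at E12 by log2 0.66 and 0.22, and its interval (-0.97 to 0.95) and that of Astn1 (-0.95 to 0.94) nearly fill the limit. Notch1, Smad6 and Fzd3 were among the other returns, as members of the signalling lists above.

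Macrophage genes and 1 globin gene were among the returns. C1qb, C1qc, Csf1r and Laptm5, 4 macrophage markers, met the rule on at least 1 of their probe sets, and Hbb-y, an embryonic globin, did so too. With 1 probe set per gene, 3 of 16 macrophage and 0 of 14 erythroid markers met it, against 165 of all 7414 genes with 1 symbol. Laptm5, a lysosomal protein of blood cells, had 344, 319 and 342 at E9.5, 1410, 1050 and 811 at E12, and 253, 400 and 387 at P0, and Csf1r, the receptor that macrophages need, had 77.2, 105 and 81.9, then 264, 180 and 145, then 112, 123 and 77.6. Hbb-y had 55.2, 38.4 and 28.6, then 177, 300 and 59.7, then 28.9, 12.7 and 4.63 on the probe set that met the rule, while its other probe set did not meet it. One of the 3 E12 arrays was under the floor there. The mean of the macrophage list relative to E9.5 lay at 0.36 to 1.03 in log2 on E12 arrays and at -0.1 to 0.05 on P0 arrays. The part of these cells in the other returns was not tested.

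The 12 that fell at E12 and returned changed by less, with a median log2 difference of -0.81 at E12. Gsr, glutathione reductase, had 207, 335 and 198 at E9.5, 70.4, 99.6 and 109 at E12, and 203, 157 and 231 at P0 (2.62-fold lower at E12, adjusted p = 0.0046). Scd1, a desaturase that makes oleate for membranes, had 1090, 1320 and 1170, then 614, 743 and 652, then 990, 1880 and 1820, on the 1 of its 3 probe sets that met the rule (the others differed at E12 by log2 -1.70 and 0.29). Smyd5, a methyltransferase, had 267, 277 and 372, then 155, 155 and 192, then 241, 319 and 266, but its other probe set was still lower at P0 (log2 difference -1.17). Ipo5, a nuclear import receptor, met the rule at 2140, 2640 and 2450, then 1070, 1260 and 1200, then 2090, 1640 and 1360, although P0 was called lower than E9.5 (adjusted p = 0.028) and its other probe set stayed lower (log2 difference -1.42). Endou, Slc25a15, Olfr159, Aanat, Ptch1, the hedgehog receptor, and Efnb3, an ephrin, were the rest of the 10 named. The other probe sets of Aanat, Ptch1 and Efnb3 had log2 differences of -0.05, -0.17 and 0.31 at E12 and were not called.

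**Figure D4:**
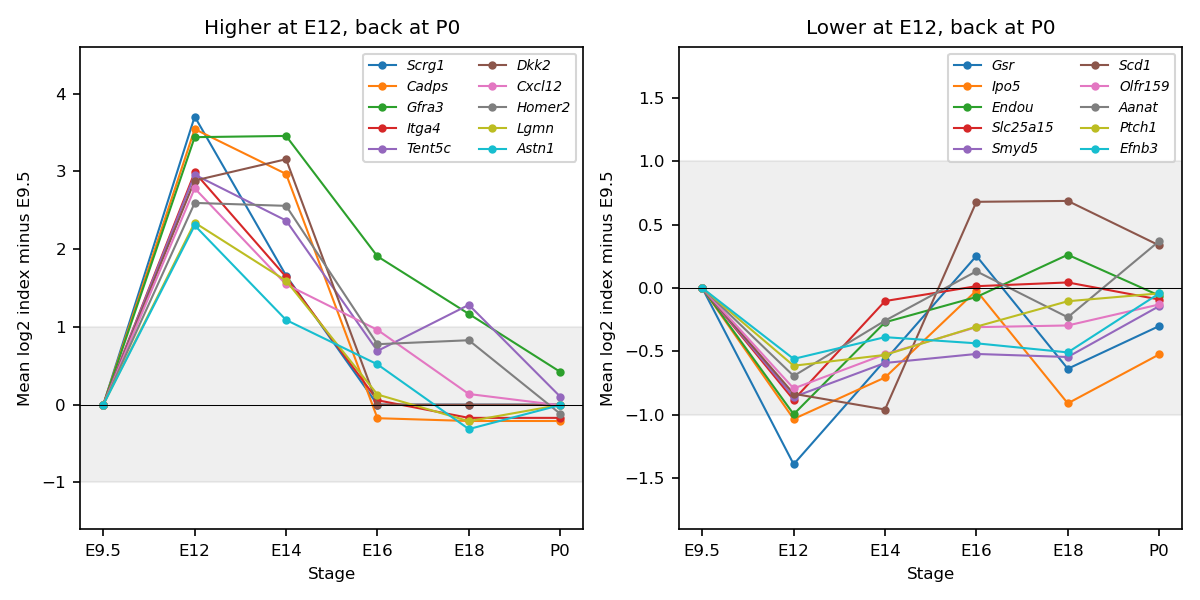
Mean log2 index relative to E9.5 at each of the 6 stages for the 10 named genes that were higher at E12 and back at P0 (left) and the 10 that were lower at E12 and back (right, with a narrower axis), the grey band marking 2-fold either way. All lines end inside the band at P0, which the return rule requires, Gfra3 at 0.42 and Ipo5 at -0.52. Gfra3, Dkk2 and Homer2 are about as high at E14 as at E12.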

How the data were processed

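Per the labels, RNA of the sorted cells was extracted with RNeasy kits, amplified by 2 rounds of in vitro transcription and hybridized to Affymetrix arrays. The deposited values are intensities, which the authors, per the labels, normalized between arrays with the smoothing spline of dChip and summarized as a model-based index with probe sensitivities from 18 arrays. The table holds 19 arrays and 12488 probe sets, 66 of them controls, not used further. Through the platform annotation 10833 had a single gene symbol, 396 more than 1 and 1193 none. The platform's gene identifiers were found in the RefSeq table for 10817, which changed 0 symbols. For dChip no version is stated in the labels. The protocol of E9.5 replicates 2 and 3 is known only through the other samples. Results for the gene of the reporter's promoter are not included.

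A floor was set at the 25th percentile of the table (68.5) before log2 was taken. Probe sets exceeding it on at least 3 arrays were tested, 10414 in all, and 2008 were not. One linear model with a mean per stage was fitted to all 19 arrays (limma 3.58.1, lmFit and eBayes, R 4.3.3, 13 residual degrees of freedom), with 2-sided Benjamini-Hochberg adjusted p and a threshold of 0.05. On simulated data (10238 probe sets, P0 against E9.5) 49% of changes of log2 1 and 88% of log2 2 were called, and 2.8% of calls were false. In a simulation of returns with a rise or fall of log2 2 at E12 and E14 only, 70% of 200 were found. The share found at a smaller size, such as the median of log2 1.05 among the 199 that rose at E12, was not tested. Changes were simulated only in probe sets with a mean over log2 1 above the floor, with independent noise of equal spread at all stages. The real P0 arrays correlated less with each other than the E9.5 arrays, and their GAPDH ratios did not overlap with those of E9.5. The simulated shares are therefore not error rates of the calls above.

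The comparison, the return rule and the 36 gene lists (796 of 967 entries on the array, 1 probe set per gene, that with the highest mean) were chosen with earlier results of these data known. Genes named first are the 15 largest rises, the 15 largest falls and 10 returns in each direction, without overlap between arrays. From each list 2 to 4 members of largest change are named, and any other gene in the text was chosen after its values were seen. Lists carry counts and medians, with no test.

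The labels give a lot number equal to the replicate number, apart from 1 array of E16, and this is where a pairing would come from. Deviations from the stage mean correlated at 0.042 on average for 39 same-lot pairs of arrays from different stages and at -0.015 for 111 pairs from different lots, and at 0.233 and 0.182 for P0 with E9.5 in replicates 1 and 3. Promoter stretches were read from RefSeq GRCm38.p6, which is no coordinate system of the arrays. The number of arrays limits the precision. Alternatives covered the floor, the filter, the scaling, covariates, blocks, array weights and each array left out.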

Additional observations from a re-analysis of the deposited data

How the results depend on the processing

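All 30 genes named for P0 against E9.5 kept their direction and call under the 18 alternatives run. The total of 2916 calls ran from 2093 (without E9.5 replicate 2) to 3446 (without P0 replicate 4) when 1 array was left out. With only the 6 arrays compared it was 1696 (708 higher, 988 lower). That setting also lowered P0 against E12, from 1705 to 639 calls, but raised E12 against E9.5 from 1469 to 2106. The main fit takes 1 spread for all stages, while P0 arrays correlated less with each other than E9.5 arrays did. The part of this in the P0 calls was not tested. The GAPDH 3'/5' covariate gave 2119, 1381 higher and 738 lower in place of 1261 and 1655. With the replicate number as a block there were 3161 calls (1242 higher, 1919 lower) and with the lot as a block 3087, and this pairing moved no count by over 1.5 times. Called the same way under every alternative were 570 higher and 535 lower.

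E12 against E9.5 (1469) had 3039 calls with array weights, and 958 to 1269 with 1 array left out, 958 without E9.5 replicate 2 and 963 without E12 replicate 1. Quantile scaling gave 920 higher and 758 lower in place of 1010 and 459. P0 against E12 (1705) had 639 calls with only the arrays compared, 2911 with array weights, and 1052 (without E12 replicate 2) to 2793 (without P0 replicate 4) with 1 array left out. Quantile scaling gave 760 higher and 1103 lower in place of 472 and 1233.

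Returns (211) numbered 119 with only the arrays compared, 127 with the GAPDH covariate (119 and 8), 431 with array weights, 97 with the interval held within -0.6 to 0.6, 261 with no interval, 84 with E14 also called, 204 with the replicate block, and 113 to 305 with 1 array left out (132 and 130 without E9.5 replicates 1 and 2, 120 and 113 without E12 replicates 1 and 2). Quantile scaling gave 164 and 29 by direction in place of 199 and 12. Of the 20 named returns, Scrg1, Dkk2 and Smyd5 met the rule under all 24 alternatives, Ipo5 under 7, Ptch1 under 8, Aanat under 9 and Astn1 under 10.

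Of the 36 lists, 23 had a median above 0, and 13 did within lot 1. The cholesterol median turned to -0.24 within lot 3 and those of fatty acid synthesis to -0.09 and Notch (0.18) to -0.19 within lot 1. Medians within 0.04 of 0 turned for oxidative phosphorylation (-0.27 and -0.12 in lots 1 and 3), ribosomal proteins (-0.27 and -0.02), neural tube (-0.06 in lot 1) and neurons (0.02 in lot 3). The cause of these shifts was not tested. With 3 arrays a stage, a return within 2-fold can be shown only for probe sets of small spread, and values under the floor have no order.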

Other observations

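Promoter letters were also counted for the immediate early and the glycolysis genes. Only genes with a match in the stretch printed were eligible to be shown, so a match in each was set by that choice. Fos and Atf3, both higher at P0, are shown with the letters TGACGT or ACGTCA, the core of the site of CREB and ATF factors, in capitals (RefSeq, GRCm38.p6, the 120 bases before the start on the strand of the gene, chr12:85473770-85473889, plus strand, and chr1:191183334-191183453, minus strand).
Fos: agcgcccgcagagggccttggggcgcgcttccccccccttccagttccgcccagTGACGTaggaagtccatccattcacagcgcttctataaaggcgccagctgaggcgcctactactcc
Atf3: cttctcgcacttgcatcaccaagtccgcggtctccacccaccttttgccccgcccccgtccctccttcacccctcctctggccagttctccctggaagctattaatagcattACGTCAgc
In the 250 bases before the start these letters stood in 6 of 31 stress and immediate early genes with a promoter in the table (19.4%), against 10% of all 5929. In glycolysis ACGTG or CACGT, the core bound by hypoxia-inducible factors, stood in 7 of 20 (35%), against 21.6% of all. These shares are descriptions without a test.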
